A study of Mus musculus with 12 samples.

Results

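RNA of a mitochondrial preparation was compared with RNA of nuclei from C17.2 cells at 0 h, before the change to differentiation medium. The comparison rests on 4 of the 12 libraries of the series, 2 of each fraction. Its members are genes: of 35321 genes listed, 21078 lay above the library floor, the value given to a gene without a read, in at least 2 of the 12 libraries. Of these, 15961 had a read in all 4 libraries of 0 h and 869 had none in any of them.

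C17.2 is an established line of mouse neural progenitor cells, here of strain CD1 x C57BL/6, and every library of the series came from it. Cells of both fractions had grown in DMEM/F12 with 10% fetal bovine serum. The other 8 libraries came from the same fractions 1 and 2 h after that medium gave way to Knockout DMEM, GlutaMAX and N2 supplement. Total RNA was depleted of ribosomal RNA before sequencing. How the mitochondria and nuclei were isolated is not given in the sources used here, nor is any other fraction. All libraries, also those of 0 h, carry the same treatment label of neural induction, and the hour was taken from their descriptions. The series title concerns mitochondria and nuclear-encoded RNA in neuronal differentiation, and the 0 h comparison gives the state before the change.

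Crude or purified mitochondria can carry endoplasmic reticulum and cytoplasmic structures attached to them, and isolated nuclei keep the outer nuclear membrane, which is continuous with the endoplasmic reticulum. mRNAs of secreted and membrane proteins are translated on that membrane, while long non-coding RNAs such as Malat1 and the RNA parts of RNase P and RNase MRP work mainly inside the nucleus. Some mRNAs of mitochondrial proteins are translated at the outer mitochondrial membrane, best described in yeast. A higher value in the mitochondrial preparation therefore describes the preparation and does not place an RNA inside the organelle.

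Values are given as centred RPM: read numbers were divided by the size of their library, and each library was then moved by 1 constant on the log2 scale. In every list of 4 values, mitochondria replicates 1 and 2 come before nuclei replicates 1 and 2, and counts or medians with 1 library left out in turn are given in the same order of the library left out. Differences are log2 values of mitochondria minus nuclei with the standard error of the limma model (n = 2 libraries a group), and a gene is called when the Benjamini-Hochberg adjusted p of limma lies under 0.05. All p-values measure the spread between libraries, since the labels call the replicates biological without naming separate cultures. That spread was shared over the groups of all hours. Per fraction, less RNA of a kind and fewer structures that hold it cannot be told apart.

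Of the 21078 genes tested, 1048 (4.97%) were called higher in the mitochondrial preparation and 390 (1.85%) higher in nuclei. Among the list medians, cell type markers aside, mitochondrial values were highest for protrusion (log2 1.02), secreted and matrix (0.66) and receptor mRNAs (0.43), and nuclear values for small structured RNAs (-2.28) and snoRNA host transcripts (-0.96). The lists were chosen with earlier results of these data known, so their order is a description. The largest nuclear excess among the genes named by size was 7.72-fold. The split between the directions depended on the scaling. Mitochondria-high calls were 72.88% of all calls after centring, 13.21% (182 against 1196) on the deposited scale and 54.07% (219 against 186) after quantile normalization. Centring moved the 0 h difference by 0.238 on the log2 scale, so changes are relative to a median gene difference of 0.007, which was -0.231 on the deposited scale. All 28 genes named by size below were called in the same direction on each of the 3 scales.

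The 4 libraries had scaling totals of 30.3 M to 42.3 M reads, of which 6413201 to 9252045 lay inside listed genes, 18.9% to 21.9%. Among the cell type markers, neural progenitor genes summed to 632 and 651 RPM in mitochondria and 526 and 522 in nuclei, with 3 of 10 called higher in mitochondria (none on the deposited scale, where 1 was called higher in nuclei). Nestin (Nes) read 131, 136, 117 and 116 and vimentin (Vim) 438, 453, 354 and 351, while Pax6 had at most 3 reads. The sums over tested members were 12.9 to 18.2 for 5 of 9 neuron markers and 0.872 to 1.24 for 5 of 6 astrocyte markers. They were 1.27 to 2.17 for 4 of 7 microglia and blood markers and 0.0535 to 0.133 for 3 of 4 endothelial markers. Of the markers of these 4 types, Tubb3 and Cdh5 were called, both higher in mitochondria. Rbfox3, Dcx, Syt1, Stmn2, Aqp4, Ptprc, Hba-a1, Hbb-bs and Kdr did not reach the filter. Cdh5 had 3, 3, 0 and 0 reads, so no fold is given. Libraries of 1 fraction differed by more than counting error, with a chi-square per degree of freedom of 12.36 in mitochondria and 12.42 in nuclei at 0 h. At 2 h these values were 1.92 and 1.99, and the fit shares its estimate of spread over all hours. With the 4 libraries of 0 h alone, 498 genes were called higher in mitochondria and 88 in nuclei. In 831 genes, the mean of 4 libraries differed by over 1 on the log2 scale from the mean of the other 8. These 4 were mitochondria replicate 2 and nuclei replicate 1 of 0 h, and replicate 1 of each fraction at 1 h. Gapdh, with 5396, 179, 323 and 5289 reads at 0 h, and Rpl17, with 2078, 13, 31 and 3033, were among the 831. At 0 h that pattern lies across the fractions, with 1 library of each on either side. A model term for it gave 1129 calls higher in mitochondria and 365 in nuclei. Without the libraries that stand apart, 1 library a fraction remained at 0 h, with 257 and 88 calls, and 10 and 11 of the 14 genes named by size in each direction were called.

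The label of the mitochondrial preparation was checked against RNA that the mitochondrial genome encodes. The gene table held 13 such genes, all at the floor in every library, so the check used the deposited FPKM of transcripts. Transcripts of the mitochondrial genome held 4.41% and 3.73% of the FPKM in the mitochondrial preparation and 3.61% and 3.46% in nuclei. Both mitochondrial libraries lay above both nuclear ones, by a narrow margin. Of 33 such transcripts, 31 had a positive difference and in 25 the libraries of the fractions did not overlap, with a median log2 difference of 0.32, against -0.11 over the 6856 transcripts tested. None of the 33 was called by limma, beside 16 with an unadjusted p under 0.05, while 23 (0.335%) and 140 (2.04%) of all transcripts were called higher in mitochondria and in nuclei. mt-Co3, a subunit of cytochrome c oxidase, had an FPKM of 425, 377, 301 and 284 (log2 difference 0.45, adjusted p = 0.07 by limma). The shares of the fractions were thus close to each other. Most of each share came from the 2 mitochondrial rRNAs, with 3.656%, 3.087%, 3.025% and 2.897%, in libraries depleted of ribosomal RNA. The 13 mitochondrially encoded mRNAs held 0.63%, 0.54%, 0.50% and 0.48%. With 1 library left out, 26, 31, 31 and 32 of the 33 transcripts had a positive difference.

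**Figure D1:**
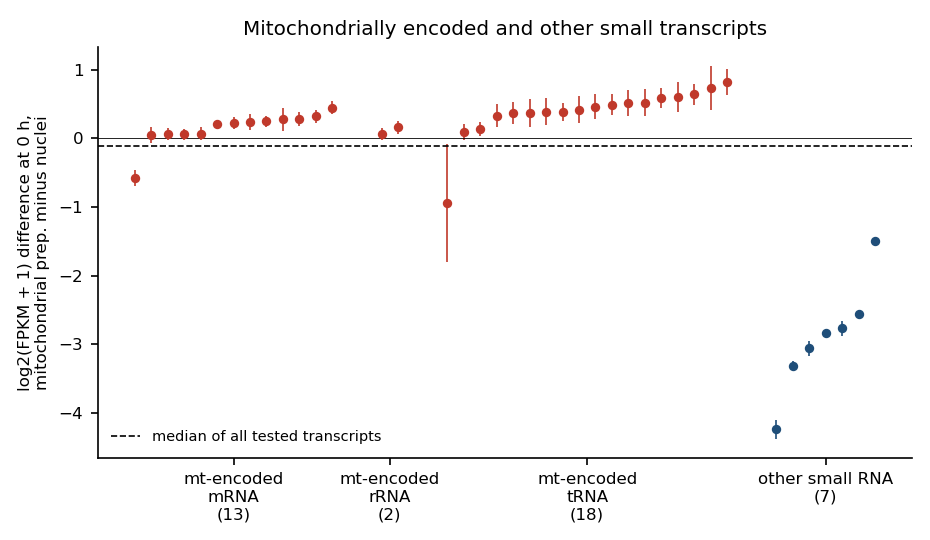
Log2(FPKM + 1) difference at 0 h (vertical axis, mitochondrial preparation minus nuclei) for 33 mitochondrially encoded transcripts and 7 other small RNAs, each point a transcript with its standard error and the dashed line the median of all 6856 tested transcripts. The mitochondrially encoded transcripts lie mostly between 0 and 0.82, and the 7 small RNAs lie between -1.50 and -4.24.

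Among the genes named by size, several with a high nuclear excess were short structured RNAs of known sequence, and 4 such RNAs are printed here because their overlaps and shared stretches decide how far the values can be assigned. Rpph1 is the RNA of RNase P, which cuts the leader from pre-tRNAs, and Rprl3 is an annotated relative of it. Rmrp is the RNA of RNase MRP, which acts in ribosomal RNA maturation, and Bc1 is a small cytoplasmic RNA of rodent neurons. Sequences are from GENCODE M21 on GRCm38, 5′ to 3′, at chr14:50807468-50807767 (minus strand, the leading 300 of 319 bases) for Rpph1, chr8:3803069-3803358 (minus) for Rprl3, chr4:43492783-43493063 (minus) for Rmrp and chr7:144914470-144914637 (plus) for Bc1. Capitals mark bases that lie inside exons of Ccnb1ip1 (Rpph1) or of Ccdc107 (Rmrp), the longest stretch identical with Rpph1 (Rprl3) and the longest run of A (Bc1).
Rpph1: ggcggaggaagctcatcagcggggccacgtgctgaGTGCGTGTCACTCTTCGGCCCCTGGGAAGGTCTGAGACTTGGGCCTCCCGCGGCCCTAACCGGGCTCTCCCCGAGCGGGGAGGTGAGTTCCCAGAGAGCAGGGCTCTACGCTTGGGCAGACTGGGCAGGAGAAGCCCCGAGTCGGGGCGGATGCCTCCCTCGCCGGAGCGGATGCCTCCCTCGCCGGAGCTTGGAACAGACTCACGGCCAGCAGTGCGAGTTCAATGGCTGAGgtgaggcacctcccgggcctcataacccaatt
Rprl3: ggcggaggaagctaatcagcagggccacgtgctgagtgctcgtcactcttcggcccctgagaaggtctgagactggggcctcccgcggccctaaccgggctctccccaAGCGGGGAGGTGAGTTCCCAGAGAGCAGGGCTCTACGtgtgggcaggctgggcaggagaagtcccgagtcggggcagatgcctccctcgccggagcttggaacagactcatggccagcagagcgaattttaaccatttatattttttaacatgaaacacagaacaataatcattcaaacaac
Rmrp: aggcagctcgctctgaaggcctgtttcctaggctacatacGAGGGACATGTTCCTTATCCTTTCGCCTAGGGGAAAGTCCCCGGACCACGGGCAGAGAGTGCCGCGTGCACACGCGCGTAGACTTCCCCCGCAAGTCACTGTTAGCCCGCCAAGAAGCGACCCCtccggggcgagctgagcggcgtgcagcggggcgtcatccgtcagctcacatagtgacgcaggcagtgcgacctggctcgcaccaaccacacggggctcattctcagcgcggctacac
Bc1: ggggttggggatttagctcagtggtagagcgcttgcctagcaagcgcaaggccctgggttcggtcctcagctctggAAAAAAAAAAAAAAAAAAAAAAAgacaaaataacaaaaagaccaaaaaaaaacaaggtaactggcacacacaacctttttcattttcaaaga

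All 5 small structured RNAs that were tested, of 11 listed, were called higher in nuclei, with a median log2 difference of -2.28 beside 0.007 over all tested genes. Rpph1 read 96.8 and 104 RPM in mitochondria and 796 and 752 in nuclei, a difference of -2.95 ± 0.04 or 7.72-fold (adjusted p = 1.6e-10 by limma). The nuclear libraries stood far above the mitochondrial ones and close to each other. Of its 319 bases, 233 also lie in exons of Ccnb1ip1 on the same strand, and Ccnb1ip1 read 69.3, 74.1, 541 and 511 (-2.88 ± 0.04). Ccnb1ip1 encodes a ubiquitin ligase of meiotic recombination. Reads from the shared bases cannot be told apart between these genes.

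Rprl3 showed the same order at a lower level, with 8.73, 9.08, 54.2 and 52.7 RPM (-2.58 ± 0.06), and Rprl2 read 0.434, 0.759, 3.84 and 3.80 (-2.74 ± 0.36). Over the aligned bases Rprl3 was identical with Rpph1 at 250 of 279 and Rprl2 at 249 of 279, with unbroken identical stretches of 37 and 32 bases. Their values are uncertain to the extent that counting split reads between near-identical copies. Rmrp read 225, 271, 1190 and 1201 RPM (-2.28 ± 0.09, 4.85-fold), and Ccdc107, whose exons hold 124 of its 281 bases, read 143, 171, 692 and 694 (-2.14 ± 0.07). Ccdc107, a gene of a coiled-coil protein, lies on the opposite strand, and since strand use is not stated the same holds for it and for other overlapping genes.

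Bc1 was low in mitochondria with 11.01 and 10.4 RPM and high in nuclei with 41.5 and 41.3, a difference of -1.96 ± 0.08 (adjusted p = 4.6e-07 by limma). The replicates of each fraction nearly coincided. Terc, the template RNA of telomerase, had the smallest difference of the list, with 0.380, 0.523, 1.07 and 1.54 RPM (-1.53 ± 0.30, adjusted p = 0.013 by limma). Scarna2, a guide RNA of Cajal bodies, read 9.95, 9.55, 35.4 and 34.6 RPM (-1.84 ± 0.07). Groups did not overlap for any of these RNAs.

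The transcript table gave the same order for 7 small RNAs, all called higher in nuclei. Rny3, a Y RNA bound by the Ro protein, had an FPKM of 22.8 and 23.1 in mitochondria and 454 and 449 in nuclei (-4.24 ± 0.14). Rn7s1 and Rn7s2, genes of the 7SL RNA of the signal recognition particle, differed by -2.84 ± 0.05 and -3.06 ± 0.11. Rn7sk, which holds the elongation factor P-TEFb inactive, differed least, by -1.50 ± 0.05. The 7SL and Y RNAs are known mainly from the cytoplasm. On that scale Rpph1 differed by -3.31 ± 0.07 and Rmrp by -2.56 ± 0.06, so that Rny3 had a larger nuclear excess than either.

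Transcripts that host small nucleolar RNAs in their introns were the next largest nuclear group. Of 15 tested, 11 were called higher in nuclei and none higher in mitochondria, with a median log2 difference of -0.96. Snhg4 read 7.46 and 7.75 RPM in mitochondria and 24.5 and 24.1 in nuclei (-1.68 ± 0.07). Snhg3 read 9.36, 8.92, 25.8 and 27.5 (-1.54 ± 0.07), and Snhg1 read 8.05, 6.73, 18.7 and 20.1 (-1.40 ± 0.09). In each of them every nuclear value exceeded every mitochondrial one. Snhg20 (2.31, 2.72, 7.95 and 7.49) and Snhg17 (5.51, 3.93, 12.7 and 13.3) differed by -1.62 ± 0.17 and -1.48 ± 0.13. Snhg8 had the highest difference of the list, 0.06 ± 0.17, with overlapping libraries of 5.51, 6.86, 6.22 and 5.62 RPM. Dancr, a long non-coding RNA outside the list that was among the 14 largest nuclear differences, read 0.841, 0.837, 3.41 and 3.51 (-2.04 ± 0.15).

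Of 12 long non-coding RNAs known for retention in the nucleus, 8 were called higher in nuclei and none in mitochondria (median -0.76), and with 1 library left out 5, 6, 6 and 5. Malat1, an RNA of nuclear speckles, read 451, 440, 757 and 735 RPM, a difference of -0.74 ± 0.04 or 1.68-fold. Neat1, the scaffold of paraspeckles, read 51.6, 49.3, 107 and 98.2 RPM (-1.03 ± 0.05). Both were well above the floor in the mitochondrial preparation, and the fractions did not overlap. Lncpint had the lowest difference (-1.21 ± 0.18) and Mir100hg, Kcnq1ot1, Firre, Pvt1 and Airn were the others called. Kcnq1ot1 (39.3, 36.5, 65.3 and 63.8 RPM) lies within Kcnq1, and Airn overlaps Igf2r, so their reads may be shared. Ftx, Snhg14, Mirg and Tug1 were not called. Mirg had no read at 0 h, and its difference of 0.53 comes from the floor levels of the libraries alone.

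The snoRNA hosts and nuclear long non-coding RNAs lay between the small RNAs and mRNAs of the splicing machinery. Of 30 splicing kinases and RS-domain factors, 8 were called higher in nuclei and 1 in mitochondria (median -0.19), and on the deposited scale these counts were 19 and 0. With 1 library left out, 6, 5, 4 and 3 were called higher in nuclei. Rsrp1, a splicing-speckle protein gene, read 10.9, 9.03, 20.1 and 19.8 RPM (-1.01 ± 0.14). Clk4, a kinase of SR proteins, read 3.88, 4.16, 7.85 and 7.02 (-0.89 ± 0.14), and Ccnl2, a cyclin of splicing speckles, differed by -0.83 ± 0.11. The other nuclei-high members were Ccnl1, Clk2, Clk1, Srsf7 and Luc7l. Srrm2, a scaffold of nuclear speckles, was the mitochondria-high member (221, 223, 194 and 195 RPM, 0.19 ± 0.03), but its difference was -0.05 on the deposited scale and -0.01 after quantile normalization.

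**Figure D2:**
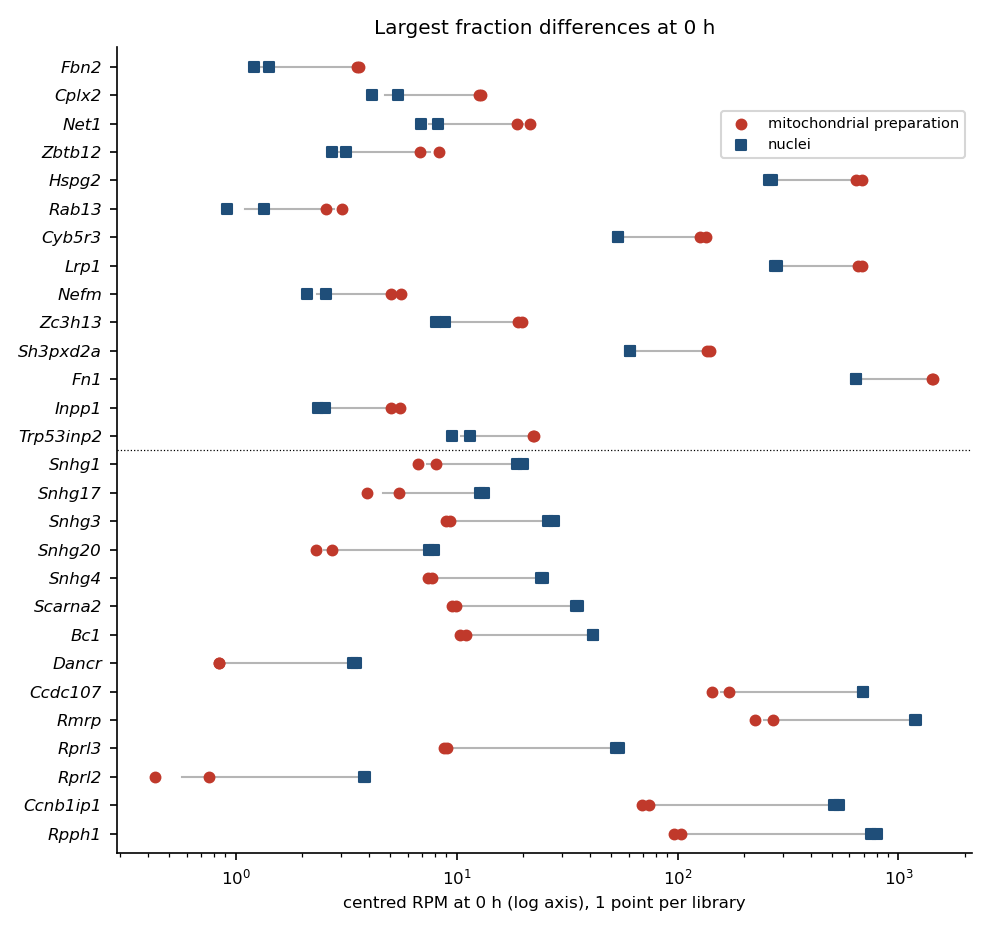
Centred RPM at 0 h (horizontal log axis) of the 28 genes named by size, with circles for the 2 mitochondrial libraries and squares for the 2 nuclear libraries. Genes above the dotted line were called higher in mitochondria and those under it higher in nuclei. The rule that picked these genes left out any whose fractions overlap.

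Among the mitochondria-high groups, mRNAs known to gather in cell protrusions had the largest median difference. This list, like the others, was chosen with earlier results of these data known, so its rank is a description. The list of 10 had 9 members called higher in mitochondria and none higher in nuclei (median 1.02), and the 9 were also called on the deposited and quantile scales, where Ranbp1 was called higher in nuclei on the former. Net1, a guanine nucleotide exchange factor, read 21.5, 18.7, 6.88 and 8.23 RPM, a difference of 1.42 ± 0.12 or 2.67-fold (adjusted p = 5.7e-05 by limma). Cyb5r3, a cytochrome b5 reductase of the endoplasmic reticulum and outer mitochondrial membrane, read 127, 134, 54.0 and 53.7 RPM (1.27 ± 0.04). Rab13, a small GTPase of membrane traffic, read 3.04, 2.56, 0.912 and 1.35 (1.33 ± 0.27, adjusted p = 0.016 by limma). The mitochondrial values were the higher ones in each pair, and Rab13 had the widest spread.

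Kif1c, a kinesin, read 49.4, 49.6, 24.97 and 24.2 RPM (1.01 ± 0.06). Trak2, which links mitochondria to kinesin, read 43.7, 45.8, 22.5 and 21.1 (1.04 ± 0.06), and Arhgap11a, a GTPase-activating protein, read 29.5, 29.5, 14.5 and 14.5 (1.03 ± 0.06). Pkp4, a plakophilin, Dynll2, a dynein light chain, and Ddr2, a collagen receptor, differed by 0.84 ± 0.10, 0.81 ± 0.05 and 0.69 ± 0.03. Ranbp1, a regulator of the Ran GTPase, was the member that did not differ in the test (52.3, 57.0, 53.0 and 58.0 RPM, -0.02 ± 0.08, adjusted p = 0.9 by limma).

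Several of these mRNAs carry purine-rich stretches in their 3′ untranslated regions, which are known from fibroblasts to take part in their transport. The 30-base window with most purines (A or G) in that region, read on the mRNA strand, is printed for 5 members to set the sequence beside the fraction difference. Positions on GRCm38 are chr3:90225722-90225751 (plus) for Rab13, chr11:87980955-87980984 (minus) for Dynll2, chr11:70728971-70729000 (plus) for Kif1c, chr13:3883601-3883630 (minus) for Net1 and chr16:18239800-18239829 (minus) for Ranbp1. Capitals mark the longest unbroken run of purines.
Rab13: ggaagaaaggggcAGGGAAAGGAGGGGGAG
Dynll2: AAGGAGAGGGGcaggaaggtgggggggggg
Kif1c: cagaaagcagagagcAAGAGAGAGGGAAGG
Net1: cAGAGGGAGcatggaattgtaatagtgaca
Ranbp1: atagtcatcaaaaatagtgaatAAAAAAtg

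Rab13 held 29 purines of 30, as many as 1.5% of 3′ untranslated regions of like length hold. Dynll2 held 28 and Kif1c 27, which 13.1% and 17.6% of such regions reach. Net1, with the largest fraction difference of the list, held 21, as did Ranbp1, which did not differ in the test, and 95.3% and 72.4% of like regions reach that number. The windows are a description of 1 annotated transcript a gene, and the fraction difference did not follow their purine count among these 5.

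mRNAs of secreted and matrix proteins formed the largest group by level. Of 29 tested, 25 were called higher in mitochondria and 1 in nuclei (median 0.66), and the 25 became 18 on the deposited scale and 17 after quantile normalization. Fn1, which encodes fibronectin, read 1421, 1435, 642 and 639 RPM, a difference of 1.16 ± 0.01 or 2.23-fold (adjusted p = 1.1e-10 by limma). Hspg2, which encodes the basement membrane proteoglycan perlecan, read 645, 682, 267 and 260 (1.33 ± 0.02). In both genes the replicates lay close together and the fractions far apart. Lamc1, a laminin chain, read 208, 212, 124 and 123 (0.77 ± 0.02). Fbn2, which encodes the matrix protein fibrillin-2 but was not in the list, was among the genes named by size at a low level, with 3.55, 3.61, 1.21 and 1.42 RPM (1.45 ± 0.17). Col1a2 went the other way (205, 199, 240 and 241 RPM, -0.25 ± 0.02) although its partner chain Col1a1 read 2181, 2307, 1242 and 1252 (0.85 ± 0.02). The Col1a1 value was not robust: after quantile normalization it differed by 0.07 (adjusted p = 0.52 by limma), and the deposited FPKM of its transcripts were 244, 249.1, 256.5 and 256.0, with the mitochondrial values the lower ones. Of the 28 genes named by size, 16 were in the transcript table, and 14 of these had the same sign without overlap on the FPKM scale. Hspg2 did not (13.44, 0, 10.22 and 8.639), and Sh3pxd2a was listed at 0 in all 4 libraries.

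The transcript table was also read over all called genes. Of 729 mitochondria-high genes with an FPKM above 0, 570 had a higher mean FPKM in mitochondria, 310 of them without overlap of libraries, and 40 were lower in mitochondria without overlap. Of 62 such nuclei-high genes, 56 had a higher mean FPKM in nuclei, 46 of them without overlap. Among genes described here, FPKM libraries overlapped for Kif1c (2.527, 4.814, 3.141 and 4.056), Igf2r (23.58, 9.468, 14.86 and 14.24), Plxnb2 (28.4, 19.99, 21.82 and 17.47) and Cs (26.12, 7.975, 21.25 and 20.71). Overlap was also found for Aldoa, Vim, Nes, Atp5a1, Atp5b, Vdac1, Cluh, Trap1, Insig1 and Rsrp1, among others. Beside Hspg2 and Col1a1, the log2 ratio of mean FPKM + 1 went against the gene call for Cs (-0.28), Nes (-0.27), Atp5b (-0.08) and Insig1 (0.05). The FPKM table is partial and was not centred.

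Receptors of endocytosis and adhesion, which are made on the same membrane, had 22 of 27 called higher in mitochondria and none in nuclei (median 0.43). On the deposited and quantile scales 7 and 8 were called, all higher in mitochondria. Lrp1, an endocytic receptor, read 657, 685, 282 and 276 RPM (1.26 ± 0.02, 2.40-fold higher). Fat1, a giant cadherin, read 135, 140, 71.9 and 69.1 (0.96 ± 0.04), and Plxnb2, a semaphorin receptor, differed by 0.63 ± 0.04. Igf2r, which sorts lysosomal enzymes, read 220, 214, 119 and 115 (0.89 ± 0.03), at a locus shared with Airn. All 4 had both mitochondrial libraries above both nuclear ones.

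Machinery of the endoplasmic reticulum and lysosomal proteins differed less. Of 30 genes for translocation and folding in the endoplasmic reticulum, 17 were called higher in mitochondria and none in nuclei (median 0.27), a count of 3 on the deposited scale and 4 after quantile normalization. Hsp90b1, a chaperone of that compartment, read 375, 360, 253 and 252 RPM (0.54 ± 0.02). Of 25 lysosomal genes, 11 were called higher in mitochondria and none in nuclei (median 0.24), and 2 on each other scale. Grn, Psap and Ctsd, which encode progranulin, prosaposin and cathepsin D, differed by 0.68 ± 0.05, 0.58 ± 0.04 and 0.46 ± 0.03. Median levels at 0 h were 2182 reads for the endoplasmic reticulum list, 849.5 for the lysosomal, 4197 for the secreted and 1831 for the receptor list. At 1000 mean reads or more, 42.18% of all genes were called higher in mitochondria (median 0.19). From 100 to 1000 mean reads, 4.858% were (median 0.02).

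**Figure D3:**
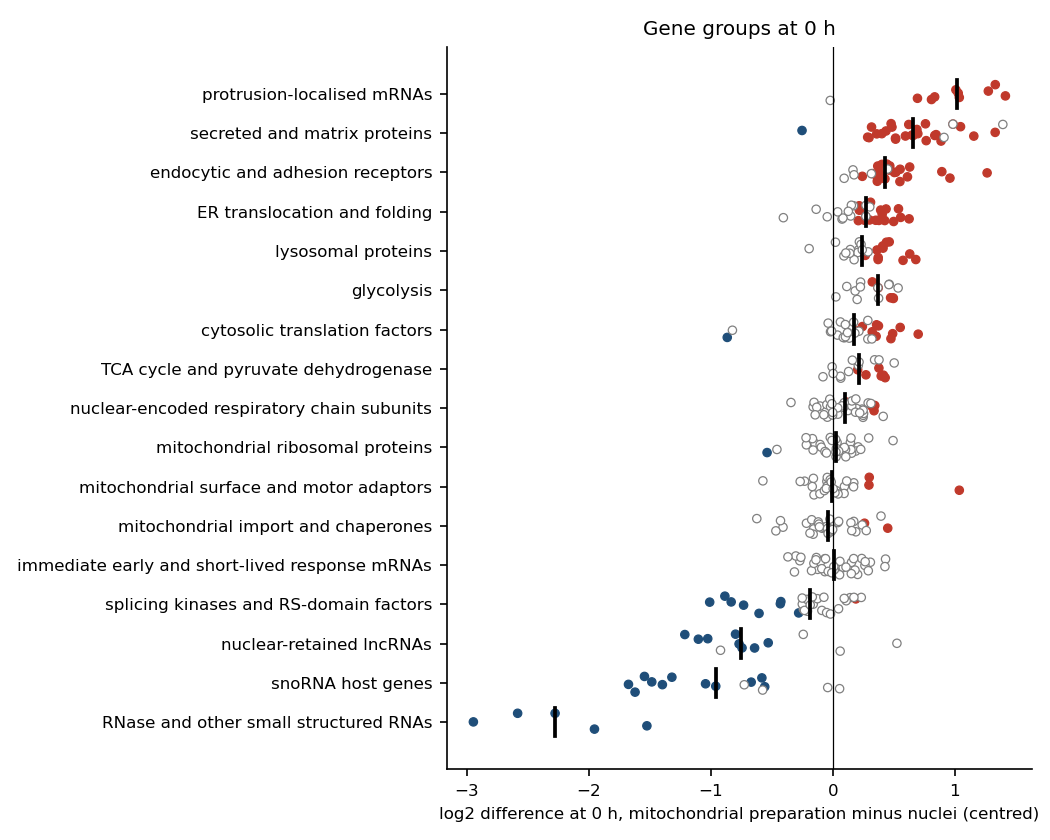
Log2 difference at 0 h (horizontal axis, mitochondria minus nuclei) of the tested members of each gene list, with red points called higher in mitochondria, blue points called higher in nuclei, open points not called and a bar at the median of each list. Protrusion-localised mRNAs have the highest median (1.02) and small structured RNAs the lowest (-2.28), while the lists of mitochondrial ribosomal, import and surface proteins and of respiratory chain subunits have medians from -0.04 to 0.10.

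Respiratory chain, ribosomal, import and surface proteins of mitochondria, made by nuclear genes, had list medians close to the median gene. Of 38 respiratory chain subunits, 4 were called higher in mitochondria and none in nuclei (median 0.10), but the deposited scale called none higher and 3 lower (median -0.14) and quantile normalization called none. With 1 library left out, 4, 1, 2 and 1 were called higher in mitochondria. Atp5a1, the alpha subunit of ATP synthase, read 108, 110, 87.4 and 87.9 RPM (0.32 ± 0.03). Atp5b, the beta subunit, read 265, 271, 249 and 248 (0.11 ± 0.02). These differences are small beside those of matrix mRNAs, and that of Atp5b was -0.13 on the deposited scale and -0.02 after quantile normalization, while Atp5a1 was at -0.01 after the latter. Sdha and Uqcrc1, subunits of complexes II and III, differed by 0.34 ± 0.07 and 0.34 ± 0.08.

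Of 31 mitochondrial ribosomal protein genes, none was called higher in mitochondria and 1, Mrps10 (-0.54 ± 0.12), higher in nuclei, with a median of 0.03 that was -0.21 on the deposited scale. Of 33 import and chaperone genes, Oxa1l, an inner membrane insertase (0.45 ± 0.09), and Trap1, a mitochondrial chaperone (0.26 ± 0.05), were called higher in mitochondria, and the median was -0.04. The import calls numbered 0, 0, 0 and 1 with 1 library left out. Among 28 surface and motor adaptor genes, Trak2, Vdac1, an outer membrane pore (0.30 ± 0.05), and Cluh, which binds mRNAs of mitochondrial proteins (0.30 ± 0.05), were called higher, with a median of -0.01. On the deposited scale, 4 surface genes and 2 import genes were called higher in nuclei, and 1 surface gene, Trak2, was called higher in mitochondria (0.80).

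Enzymes of central metabolism had somewhat higher values in mitochondria on the centred scale. Of 18 genes of the TCA cycle and pyruvate dehydrogenase, 6 were called higher and none lower (median 0.21), among them Mdh2, malate dehydrogenase (0.43 ± 0.05), Ogdh (0.41 ± 0.05) and Cs, citrate synthase (0.40 ± 0.03). Of 16 glycolysis genes, which act in the cytosol, 5 were called higher and none lower (median 0.37), with Aldoa, an aldolase, at 153, 143, 103 and 107 RPM (0.50 ± 0.05). Neither list had a call on the deposited or quantile scale, and the TCA median was -0.03 on the former. With 1 library left out, 4, 3, 3 and 5 glycolysis genes were called, with medians of 0.245, 0.547, 0.267 and 0.541. In 5 of the 16 glycolysis genes the library pattern described for Gapdh exceeded 1 on the log2 scale. Median levels at 0 h were 1650 reads for the glycolysis list and 692.8 for the TCA list. Calls higher in mitochondria took 42.18% of all genes with at least 1000 mean reads (median 0.19). From 100 to 1000 mean reads they took 4.858% (median 0.02).

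Of 30 cytosolic translation factors, 10 were called higher in mitochondria and 1 in nuclei (median 0.18), but 3 in each direction on the deposited scale (median -0.06). The median rested on single libraries, at 0.027, 0.301, 0.006 and 0.345 with 1 library left out, while the number called higher in mitochondria was 10, 9, 9 and 9. The list had a median level of 2009 reads at 0 h. Calls higher in mitochondria took 42.18% of all genes with at least 1000 mean reads (median 0.19). Eif3a, the scaffold of initiation factor 3, read 158, 156, 98.2 and 95.3 RPM (0.70 ± 0.03). Eif4a2, an initiation helicase whose introns host snoRNAs, was the nuclei-high member with 27.7, 25.8, 46.8 and 50.8 (-0.87 ± 0.06). Of 22 mitotic genes, 7 were called higher in mitochondria and none in nuclei (median 0.19), with Plk1, a mitotic kinase, at 0.53 ± 0.08, while the deposited scale called none (median -0.05). The mitotic calls numbered 4, 2, 3 and 1 with 1 library left out.

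Short-lived response mRNAs showed no called difference at 0 h: of 35 immediate early genes none was called (median 0.01), and on the deposited scale 5 were called higher in nuclei. Egr1 read 5.40, 5.29, 4.42 and 4.65 RPM (0.24 ± 0.08, adjusted p = 0.14 by limma). Of 23 genes of the amino acid response driven by ATF4, 9 were called higher in mitochondria and 2 higher in nuclei (median 0.17), and the deposited scale called 3 higher in nuclei and none in mitochondria (median -0.07). With 1 library left out, the 9 became 4, 5, 5 and 4, and the 2 became 0, 1, 0 and 0. The 2 were the transcription factor genes Atf4 (35.1, 36.01, 39.5 and 40.1 RPM, -0.16 ± 0.03) and Ddit3 (2.63, 2.80, 3.88 and 3.61, -0.46 ± 0.11), while amino acid transporters and tRNA synthetases were among the 9. This list had a median level of 1643 reads at 0 h. Calls higher in mitochondria took 42.18% of all genes with at least 1000 mean reads (median 0.19). Of 25 genes of cholesterol synthesis, 5 were called higher in mitochondria and 1, Insig1 (-0.37 ± 0.07), in nuclei (median 0.08), against 0 and 2 on the deposited scale (median -0.16). The 5 became 2, 1, 1 and 2 with 1 library left out. Of 338 tested zinc finger genes named Zfp, 5 were called higher in mitochondria and 10 in nuclei (median -0.15), against 0 and 34 on the deposited scale. The 10 became 8, 5, 1 and 1 with 1 library left out.

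Beside Fbn2, 7 of the 14 largest mitochondrial differences named here belonged to no list. They were Cplx2, a regulator of vesicle fusion (12.7, 12.9, 5.43 and 4.13 RPM, 1.43 ± 0.12), Zbtb12, which overlaps C2 (1.37 ± 0.20), the neurofilament gene Nefm (1.20 ± 0.11), Zc3h13, a part of the m6A writer complex (1.19 ± 0.15), Sh3pxd2a, an invadopodium scaffold (136, 140, 61.1 and 61.0 RPM, 1.18 ± 0.03), Inpp1 (1.11 ± 0.14) and Trp53inp2 (1.09 ± 0.09). The rule for naming genes by size required that the fractions did not overlap.

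Calls higher in mitochondria rose with level from 5 mean reads up, while from 1 mean read up those higher in nuclei stayed between 1.737% and 2.548% of genes. Of 1572 genes with at least 1000 mean reads at 0 h, 663 (42.18%) were called higher in mitochondria and 36 (2.29%) in nuclei, while of 2909 genes under 1 mean read none was called. Of the 390 nuclei-high genes, 205 had at least 100 mean reads, and of the 1048 mitochondria-high genes 1022 did. Among protein-coding genes with at least 100 mean reads, the median coding length was 2252 bases in 994 mitochondria-high genes, 1500 in 153 nuclei-high genes and 1419 in 7536 genes not called. The mitochondria-high genes had a median of 15 exons and a GC content of 52.55%, against 11 and 47.57% in the nuclei-high and 10 and 49.98% in the others. Their longer coding length and higher GC content also held within each of 5 classes of level, as in the highest (2394 bases against 1599 in genes not called). At the same minimum of reads, 16 of 39 lincRNAs (41.03%) and 18 of 62 processed transcripts (29.03%) were called higher in nuclei, beside 153 of 8683 protein-coding genes (1.762%).

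**Figure D4:**
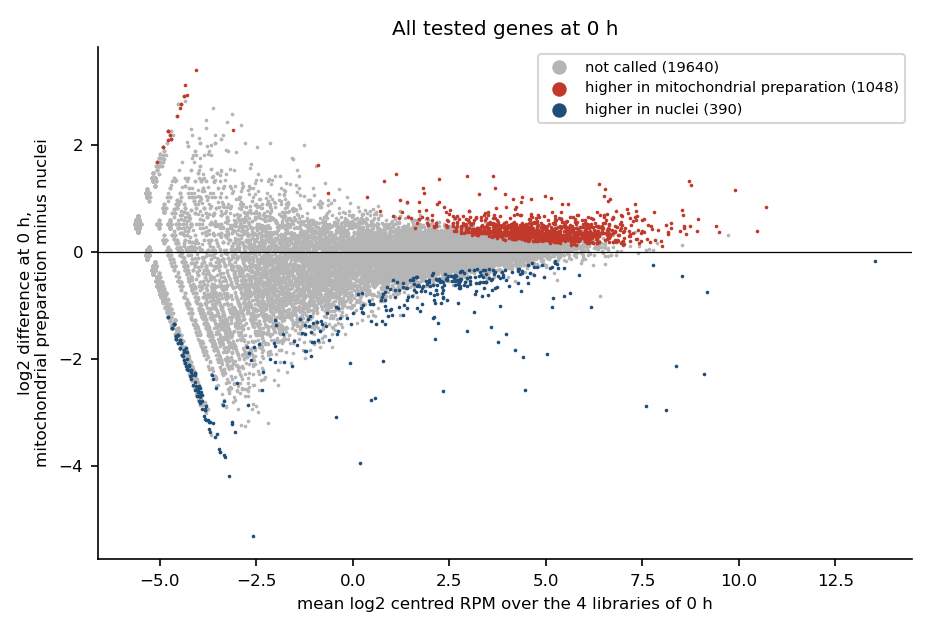
Log2 difference at 0 h (vertical axis, mitochondria minus nuclei) against the mean log2 centred RPM of the 4 libraries of 0 h (horizontal axis) for all 21078 tested genes, with 1048 called higher in mitochondria and 390 called higher in nuclei in colour. The mitochondria-high calls lie mostly at high level and the nuclei-high calls spread over all levels.

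The 0 h difference was set beside those at 1 and 2 h, which come from other libraries in the same fit. At 1 h, 884 genes (4.19%) were called higher in mitochondria and 603 (2.86%) in nuclei, and at 2 h 868 (4.12%) and 607 (2.88%). Of the 1048 mitochondria-high genes of 0 h, 367 were called the same way at 1 h, 436 at 2 h and 288 at both, while 110 were called the opposite way at 1 h and 16 at 2 h. Of the 390 nuclei-high genes, 101, 127 and 71 were called the same way. In the test of the change itself, the mitochondria-minus-nuclei difference was lower at 1 h than at 0 h in 501 genes (2.38%) and higher in 108 (0.512%). At 2 h it was lower in 181 (0.859%) and higher in 34 (0.161%). These counts depended on the scaling: the deposited scale gave 82 lower and 1573 higher at 1 h and 1 and 3 at 2 h, and quantile normalization 188 and 69 at 1 h and 0 and 1 at 2 h.

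Several lists of the secretory pathway had many members whose difference was lower after the change of medium. Among 29 secreted and matrix genes, the difference was lower at 1 h than at 0 h in 23 and at 2 h in 18, and the median went from 0.66 at 0 h to 0.01 at 1 h and 0.19 at 2 h. Among 27 receptors it was lower in 21 at 1 h and 9 at 2 h (median 0.43, -0.11 and 0.09). At 1 h, 10 and 16 of the secreted genes were lower on the deposited and quantile scales, and at 2 h none was on either. For the receptors these counts were 8 and 11 at 1 h and none at 2 h. Fn1 went from 1.16 to 0.12 and 0.64, Hspg2 from 1.33 to 0.31 and 0.72, and Lrp1 from 1.26 to 0.27 and 0.78. Each of these 3 stayed above 0, and their change at 1 h was called on all 3 scales. With 1 library left out, the 18 secreted genes at 2 h became 18, 15, 16 and 11 and the 9 receptors 9, 6, 4 and 6.

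The difference was also lower in 16 of 30 genes for translocation and folding in the endoplasmic reticulum at 1 h and in 8 at 2 h (median 0.27, -0.10 and 0.03). Among 25 lysosomal genes it was lower in 11 and 6 (median 0.24, -0.16 and 0.01), and among 25 cholesterol genes in 8 and 5. It was lower in 6 and 3 of the 23 genes of the amino acid response, where the deposited scale gave none lower and 5 higher at 1 h. On the deposited and quantile scales 1 and 4 genes of the endoplasmic reticulum, 2 and 7 lysosomal genes and 1 and 3 cholesterol genes were lower at 1 h, and none at 2 h. The 2 h counts became 6, 3, 2 and 2 for the endoplasmic reticulum, 4, 3, 3 and 3 for lysosomal genes and 2, 1, 0 and 0 for cholesterol genes with 1 library of 0 h left out.

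The protrusion mRNAs kept their difference, with medians of 1.02, 1.07 and 1.08 at 0, 1 and 2 h. Net1 read differences of 1.42, 1.52 and 1.68, Cyb5r3 1.27, 1.23 and 1.35, and Kif1c 1.01, 0.98 and 1.09, with no called change. Dynll2 rose by 0.46 at 1 h (adjusted p = 0.006 by limma), while Ddr2 fell by 0.39 at 1 h and by 0.35 at 2 h. On the deposited scale 4 of the 10 had a higher difference at 1 h and none a lower one. The small structured RNAs kept a nuclear excess, with medians of -2.28, -1.93 and -1.97. Rpph1 went from -2.95 to -2.34 and -2.55, still the same order of fractions. Bc1 differed most, from -1.96 at 0 h to -0.20 at 1 h and -0.40 at 2 h, a change of 1.75 (adjusted p = 4.1e-05) and 1.56 (adjusted p = 0.00026) by limma that was also called on both other scales. The snoRNA hosts had medians of -0.96, -0.69 and -0.51 and the nuclear long non-coding RNAs of -0.76, -0.53 and -0.77.

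**Figure D5:**
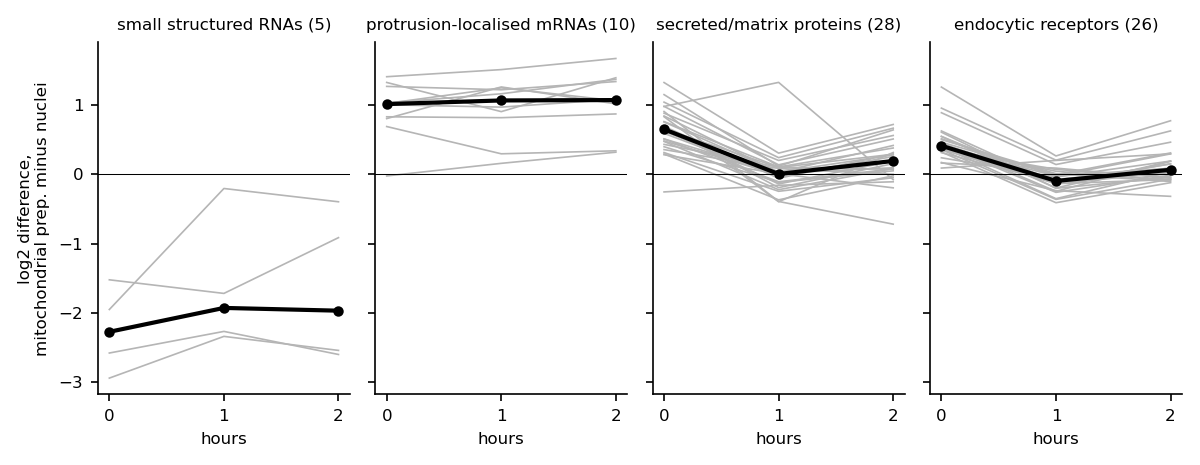
Log2 difference between mitochondria and nuclei (vertical axis) at 0, 1 and 2 h (horizontal axis) for members of 4 gene lists with at least 20 mean reads at 0 h, each thin line a gene and the thick line the median. Secreted and matrix genes lie lower at 1 and 2 h than at 0 h, while protrusion mRNAs lie at about the same difference at all hours.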

How the data were processed

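RNA of a mitochondrial preparation and of nuclei from C17.2 cells at 0 h was compared, with n = 2 libraries each. Libraries were NEBNext Ultra II libraries from RNA depleted of ribosomal RNA, per the labels' protocols. HISAT2, StringTie, edgeR and the builds GRCm38 and mm10 stand without versions in the submitters' processing notes. The authors deposited gene values as log2 RPM, read from the values. A lowest value taken as 0.9 read made at least 99.997% of values whole reads within 0.05. The deposited transcript values are FPKM, per the file headers, for 7153 transcripts, part of a list whose numbers run to 123574, and 11 libraries; 11 coverage columns were not used.

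Of 35373 entries, 52 repeats were left out. GENCODE M21 held 35250 identifiers, 99.77% of them within 5 kb. Each library was centred on its median deviation over the 14440 genes above the floor in all 12 libraries. The gene test was limma 3.58.1 (R 4.3.3) with 6 group means over 12 libraries, trend and robust moderation, and Benjamini-Hochberg adjustment at 0.05. Transcripts with FPKM of at least 1 in at least 2 libraries were tested as log2(FPKM + 1), a scale that understates changes of low transcripts. Sequences and coding features came from GENCODE M21 with Python 3.11.15, pandas 2.3.3 and Biopython 1.88. The fit was tested on simulated data.

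The genes named by size are the 14 largest differences per direction among called genes without overlap of libraries, above the median level and without a predicted or clone name. In each list the 4 members of smallest p and the extremes were eligible to be named, and only some of them are given here. Other members and the genes given for the library pattern were chosen after their values were seen. The members and gene lists were chosen with earlier results of these data known. The alternatives were other scales, filters, subsets of libraries, a replicate block, no moderation, and voom on recovered reads.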

Additional observations from a re-analysis of the deposited data

Results flagged for a closer look

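The mitochondria-minus-nuclei difference of the genes given here changed between 0 h and a later hour in the limma test of the change itself (n = 2 libraries a group, adjusted p under 0.05), and each change is given as log2. Over all tested genes at 2 h, the difference was lower in 181 and higher in 34. On the deposited scale these counts were 1 and 3, and after quantile normalization 0 and 1, so most 2 h changes given here depend on the scaling. At 1 h the difference was lower in 501 genes and higher in 108. These counts became 82 and 1573 on the deposited scale and 188 and 69 after quantile normalization. The direction of the smaller 1 h changes given here can therefore depend on the scaling as well. Those of Fn1, Hspg2, Lrp1 and Bc1 were called on all 3 scales. Genes named by the size of their 0 h difference were picked on the same 0 h libraries that enter the change. No explanation was tested.

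Matrix and receptor genes had a lower difference at both hours, given for 1 h and then 2 h. The changes were -1.04 and -0.51 for Fn1, -1.02 and -0.61 for Hspg2, -1.0 and -0.49 for Lrp1, -0.81 and -0.43 for Col1a1, -0.66 and -0.38 for Lamc1, -0.75 and -0.33 for Fat1, -0.75 and -0.43 for Igf2r, -0.75 and -0.48 for Plxnb2 and -0.39 and -0.35 for Ddr2. Genes of the endoplasmic reticulum and lysosome moved likewise, by -0.54 and -0.23 for Hsp90b1, -0.75 and -0.41 for Psap, -0.77 and -0.45 for Grn and -0.60 and -0.45 for Ctsd. So did Nes (-0.47 and -0.43), Atp5b (-0.19 and -0.17) and Srrm2 (-0.50 and -0.32), whose 0 h direction depends on the scaling. At 1 h alone the test was passed by Fbn2 (-1.31), Cs (-0.22) and Cdh5 (-2.44), the last on 3 reads in each mitochondrial library.

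The difference was higher, so that the nuclear excess was smaller, for Bc1 (1.75 and 1.56), Rpph1 (0.60 and 0.40), the overlapping Ccnb1ip1 (0.51 and 0.31) and Snhg1 (0.68 and 0.71). At 1 h alone the same held for Dancr (0.92), Clk4 (1.14), Snhg4 (0.66), Snhg3 (0.48), Scarna2 (0.45) and Eif4a2 (0.40), and Dynll2 (0.46) had a larger mitochondrial excess. At 2 h alone Malat1 (-0.36) and Neat1 (-0.43) had a larger nuclear excess, a change called on neither the deposited nor the quantile scale.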

How the results depend on the processing

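Counts at 0 h are given as higher in mitochondria and higher in nuclei, against 1048 and 390. They were 182 and 1196 on the deposited scale, 219 and 186 after quantile normalization, 3328 and 636 without a filter, where 2047 of 3964 calls had under 1 read on average, 498 and 88 in the 4 libraries alone, and 562 and 315 without trend and robust moderation. Leaving out 1 library gave 574 to 752 and 179 to 237. Added after seeing the data, the 8 libraries on 1 side of the library split gave 257 and 88, and voom gave 1392 and 600. No call was opposite to the main one in any setting.

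Changes of the difference numbered 609 at 1 h and 215 at 2 h. They became 1655 and 4 on the deposited scale, 257 and 1 after quantile normalization, 45 and 50 without moderation, and 3 and 0 in the 8 libraries, a setting that leaves 1 library a group at 0 and 1 h. There were 3403 at 1 h without a filter, 480 at 2 h with at least 20 mean reads and 399 at 2 h with voom. Leaving out 1 library of 0 h gave 321 to 524 at 1 h and 74 to 158 at 2 h.

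The log2 difference of Srrm2 at 0 h became -0.05 (deposited) and -0.011 (quantile), the log2 difference of Atp5b at 0 h -0.128 and -0.019, the log2 difference of Nes at 0 h -0.043 and -0.135, and the log2 difference of Atp5a1 at 0 h -0.007 (quantile). The cause of these shifts was not tested.

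The replicate number did not pair the fractions: replicate 1 minus replicate 2 correlated at -0.331 between them over 14440 genes. A replicate block gave 1039 and 369 calls in 12 libraries. In the 4 alone it gave 0 and 0, beside 3370 genes at an unadjusted p under 0.05 by limma. The crossed pairing, mitochondria replicate 2 with nuclei replicate 1, gave 1858 and 1029 in the 4 libraries. It was added after seeing the data and follows the library split, so its counts do not test that pairing. With the replicate block 2 of 33 mitochondrially encoded transcripts were called. edgeR and DESeq2 were planned and not run; the recovered reads were tested with voom. With 2 libraries a group and 30.3 M to 42.3 M reads each, 1022 of the 1048 mitochondria-high genes and 205 of the 390 nuclei-high genes had at least 100 mean reads.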

Other observations

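On the deposited scale and after centring alike, the gene of highest level at 0 h was Lars2, a mitochondrial leucyl-tRNA synthetase gene, with 10680, 11510, 12640 and 12370 centred RPM in mitochondria replicates 1 and 2 and nuclei replicates 1 and 2 (log2 difference -0.17 ± 0.03, adjusted p = 0.028 by limma, n = 2). Lars2 was singled out after its values were seen, and whether the reads at this gene all came from its mRNA was not tested. By biotype, 10 of 27 scaRNAs (37.04%) and 4 of 6 ribozymes (66.67%) were called higher in nuclei and none of either higher in mitochondria.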
